A study of Homo sapiens with 4 samples.

Results

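The genes described here are 49 that write, remove or read the marks of chromatin, the complex of DNA and histones: Polycomb proteins, DNA methyltransferases and the TET enzymes that oppose them, histone deacetylases, histone demethylases, methyltransferases and acetyltransferases, and remodellers. They were chosen by gene symbol, and all 49 were found among the 55765 symbols of the count table. RNA was sequenced from SK-N-BE(2)C, an established human neuroblastoma line with MYCN amplification, kept for 144 h in 10 µM all-trans retinoic acid (ATRA, a vitamin A derivative that makes neuroblastoma cells differentiate) or in ethanol, the solvent. Each treatment had 2 libraries, numbered here by the sample titles, in which the second library of each treatment carries a 2. All cells were of 1 line, grown in medium with serum and antibiotics, with no other agent named. Nothing in the labels tells whether a treatment's libraries came from separate cultures, and the p-values therefore reflect the spread among these 4 libraries alone, which could be technical. Total counts per library lay between 12850462 and 19883465. All 49 genes passed the filter on low counts that left 18900 genes for the test.

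Polycomb repressive complex 2 (PRC2) places methyl groups on lysine 27 of histone H3, and complex 1 (PRC1) binds that mark and ubiquitinates histone H2A. Both keep developmental genes silent, and EZH2, the PRC2 enzyme of dividing cells, has been studied as a drug target in neuroblastoma. Deacetylases act within corepressor complexes that unliganded retinoic acid receptors recruit to their target genes, while acetyltransferases such as EP300 act with the liganded receptors. DNMT1 copies DNA methylation at each round of replication, and several of these genes are known to be expressed most in cycling cells.

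No member passed the test between ATRA and ethanol (edgeR quasi-likelihood, adjusted p at or above 0.0827), where 0.545% of all tested genes were called higher and 0.153% lower. At an unadjusted p under 0.05, 9 of 49 members (18.4%) were past the threshold against 15.9% of all genes: 5 were higher (9.43% of all genes) and 4 lower (6.49%). In this fit the share is near that of the whole table. The 5 were KDM5B, JARID2, CHD5, PHC2 and HDAC11, and the 4 were HDAC9, SUV39H1, SUV39H2 and SUZ12. DESeq2 called 2 members higher, KDM5B and JARID2 (4.15% of its 19944 tested genes), and 2 lower, HDAC9 and SUV39H1 (2.22% of those genes). Over all 37299 genes with 1 count or more, DESeq2 called 2.22% higher and 1.19% lower. Of the members it called 4.08% in each direction. In limma-voom 0 members were called, with 9 at an unadjusted p under 0.05. With a term for the replicate number, edgeR called 8 members higher (16.3%, against 12.3% of all genes). That fit called 11 members lower (22.4%, against 9.38% of all genes). The labels do not say that replicate numbers mark a shared culture. Both ATRA libraries lay above both ethanol libraries in 14 members (28.6%, against 23.8% of all genes) and below them in 11 (22.4%, against 21.7%). The median log2 fold change was 0.05 over the members and 0.01 over all genes. The median size of the change, without its sign, was 0.31 for the members and 0.42 for all genes. Among well expressed genes, with a mean log2 CPM of at least 5, it was 0.20 for 36 members and 0.33 for all 6214 genes. In 23 members the estimate lay within 0.25 of 0, and in 7 it was beyond 1 in either direction. The members spread to both sides of 0, as the plot of fold changes by role shows.

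**Figure D1:**
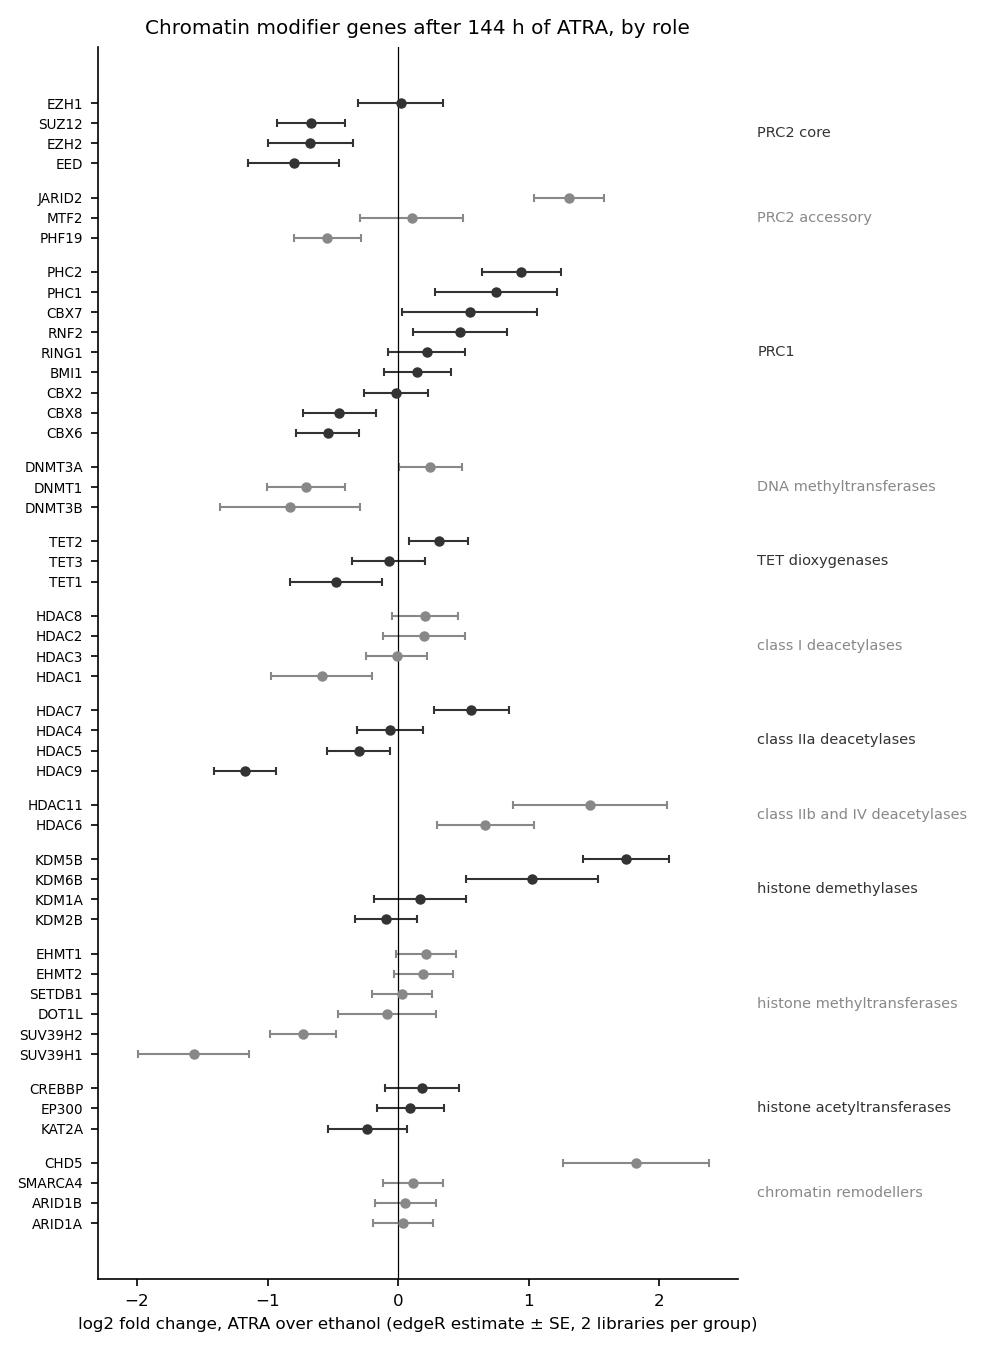
Log2 fold change of ATRA over ethanol for the 49 chromatin modifier genes (horizontal axis, edgeR estimate with its standard error, 2 libraries per group), grouped by role along the vertical axis. KDM5B, CHD5, HDAC11 and JARID2 lie farthest to the right, SUV39H1 and HDAC9 farthest to the left, and the acetyltransferases and 3 of the 4 remodellers lie near 0.

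The PRC2 core had 3 of its 4 genes with both ATRA libraries below both ethanol libraries, against 21.7% of all genes, and none passed. EZH2, the methyltransferase, had 72.9 and 99.5 CPM (the read count scaled to a common library size, with TMM factors) in ethanol libraries 1 and 2, and 41.4 and 66.8 CPM in ATRA libraries 1 and 2. The groups did not overlap, and the log2 fold change was -0.67 ± 0.33 (SE; adjusted p 0.396, edgeR quasi-likelihood), with -0.38 without ATRA 1, -0.41 without ethanol 2 and -1.07 without ATRA 2. SUZ12, the subunit that holds the complex together, had 43.4 and 48.9 CPM with ethanol and 26.0 and 32.1 CPM with ATRA (-0.67 ± 0.26, adjusted p 0.284). EED, which reads the methylated lysine, had 35.0 and 23.3 CPM with ethanol and 19.8 and 13.7 CPM with ATRA (-0.80 ± 0.35, adjusted p 0.342). For EED the lower ethanol library, at 23.3 CPM, stood close above the higher ATRA library, at 19.8 CPM. EZH1, the paralog of EZH2 found in resting cells, had 32.8 and 42.8 CPM with ethanol and 29.5 and 47.1 CPM with ATRA. Its groups overlapped fully and its estimate was 0.02 ± 0.32.

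The windows before the transcription starts of EZH2 and SUZ12 are shown because these genes of 1 complex had nearly the same fold change. They are the 250 bases before the start in RefSeq (build GRCh38.p14), 5′ to 3′ on the gene's strand, with capitals for matches to 3 motifs searched on both strands: the CCAAT box (CCAAT), the E2F site of cell cycle genes (TTTCGCGC, TTTGGCGC, TTTCCCGC, TTTGGCGG, TTTCCCGG or TTTCGCGG) and the cell cycle homology region (TTTGAA or TTCGAA). For EZH2 (chr7:148884292-148884541, minus strand, the first of 2 listed starts) and SUZ12 (chr17:31936757-31937006, plus strand) the windows read:
EZH2: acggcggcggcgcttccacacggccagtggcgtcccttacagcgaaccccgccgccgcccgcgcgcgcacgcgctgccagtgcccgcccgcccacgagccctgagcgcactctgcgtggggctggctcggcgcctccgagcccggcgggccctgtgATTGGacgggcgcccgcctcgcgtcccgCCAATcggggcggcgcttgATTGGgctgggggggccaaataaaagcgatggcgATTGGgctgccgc
SUZ12: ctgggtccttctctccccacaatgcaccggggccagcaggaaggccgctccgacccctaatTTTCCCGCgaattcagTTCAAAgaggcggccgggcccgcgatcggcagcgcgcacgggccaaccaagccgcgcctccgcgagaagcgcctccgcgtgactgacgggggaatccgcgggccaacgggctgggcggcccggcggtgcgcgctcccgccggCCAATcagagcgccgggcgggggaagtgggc
The EZH2 window holds 4 CCAAT boxes and no other match, while the window of the other listed EZH2 start holds no match. The SUZ12 window holds 1 match to each of the 3 motifs. Among all 35116 windows, 32.0% hold a CCAAT box, 4.38% an E2F match and 14.3% a cell cycle homology match. Over the members, RefSeq gave 78 windows for 44 genes, of which 28.2%, 5.13% and 6.41% hold them. The E box (CACGTG), bound by MYC proteins, was in 14.1% of member windows and 6.34% of all, and the single retinoid receptor repeat (AGGTCA) in 7.69% and 12.1%, again on both strands. The retinoic acid response elements of the DR5 and DR2 type, searched as exact repeats of AGGTCA on both strands, were in 0 of the 78 member windows and in 1 of all windows each. A match is a description of letters and not of binding.

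Of the 3 accessory subunits of PRC2 0 passed, with 2 estimates above 0 and 1 below. JARID2, which helps to recruit PRC2 and was found to be needed in differentiating embryonic stem cells, had 47.9 and 59.2 CPM with ethanol and 116 and 149 CPM with ATRA. Both ATRA libraries were far above both ethanol libraries, with a log2 fold change of 1.31 ± 0.27 (adjusted p 0.0922, edgeR quasi-likelihood), or 2.48-fold. The same gene was called by DESeq2 (adjusted p 0.0204) and by edgeR in 2 of the 4 fits that left out 1 library, those without ATRA 1 (0.0153) and without ethanol 2 (0.0474). PHF19, which binds methylated lysine 36 of histone H3, had 56.3 and 57.1 CPM with ethanol and 33.7 and 44.2 CPM with ATRA (-0.54 ± 0.26, adjusted p 0.378). MTF2, a related Tudor domain protein, had 51.0 and 85.4 CPM with ethanol and 52.0 and 94.6 CPM with ATRA. It followed the replicate number and not the treatment.

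The JARID2 window is shown beside that of KDM5B, since these 2 members had the smallest p among those higher with ATRA; the first of 2 listed JARID2 starts (chr6:15245819-15246068, plus strand) and the KDM5B start (chr1:202808422-202808671, minus strand) were taken from the same table, with capitals as before:
JARID2: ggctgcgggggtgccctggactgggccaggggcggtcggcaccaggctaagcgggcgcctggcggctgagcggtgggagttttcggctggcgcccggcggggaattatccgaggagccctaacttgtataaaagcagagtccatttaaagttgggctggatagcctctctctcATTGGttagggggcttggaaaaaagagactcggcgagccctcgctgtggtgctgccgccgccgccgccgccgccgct
KDM5B: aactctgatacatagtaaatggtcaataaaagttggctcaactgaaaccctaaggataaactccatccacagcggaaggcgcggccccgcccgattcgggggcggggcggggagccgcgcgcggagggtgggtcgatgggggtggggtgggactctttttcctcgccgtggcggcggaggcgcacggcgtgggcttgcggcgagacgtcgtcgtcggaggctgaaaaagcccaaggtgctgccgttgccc
The JARID2 window holds 1 CCAAT box and the KDM5B window holds 0 matches to the 3 motifs. The window of the other listed JARID2 start holds no match.

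In PRC1, 6 of 9 genes had estimates above 0 and 3 below, and 0 passed. PHC2, a polyhomeotic subunit that joins complexes into larger assemblies, had 33.4 and 54.4 CPM with ethanol and 86.2 and 82.8 CPM with ATRA. The 2 ATRA libraries were alike while the ethanol libraries were not, and the log2 fold change was 0.94 ± 0.30 (adjusted p 0.211, edgeR quasi-likelihood; 0.59 without ethanol 1). Its relative PHC1 had 11.9 and 25.0 CPM with ethanol and 22.1 and 40.1 CPM with ATRA, which overlapped between groups (0.75 ± 0.47) although ATRA was higher within each replicate number. The ubiquitin ligases RNF2 and RING1 were at 0.47 ± 0.36 and 0.22 ± 0.30, and BMI1, their partner that holds stem cells in self-renewal, was at 0.14 ± 0.26.

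The CBX proteins are the PRC1 subunits that bind the PRC2 mark. CBX6 had 232 and 199 CPM with ethanol and 158 and 138 CPM with ATRA (-0.54 ± 0.24, adjusted p 0.354, edgeR quasi-likelihood), and CBX8 had 35.9 and 28.6 CPM with ethanol and 25.7 and 21.5 CPM with ATRA (-0.45 ± 0.28). In both genes each ATRA library was below each ethanol library. CBX2 had 52.5 and 65.8 CPM with ethanol and 57.9 and 59.1 CPM with ATRA, so its ATRA libraries lay between the ethanol ones (-0.02 ± 0.25). CBX7 rested on few reads, 28 and 40 with ethanol and 39 and 57 with ATRA, or 2.16 and 1.98 CPM against 2.64 and 3.41 CPM (0.55 ± 0.52).

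Among the DNA methyltransferases, the estimates of DNMT1 and DNMT3B were below 0 and that of DNMT3A above, with 0 of 3 called. DNMT1, the maintenance enzyme, had 228 and 255 CPM with ethanol and 116 and 181 CPM with ATRA, which did not overlap (-0.71 ± 0.30, adjusted p 0.327, edgeR quasi-likelihood). Its difference was larger within replicate 1 (-0.98) than within replicate 2 (-0.50), and it was -1.07 without ATRA 2 and -0.43 without ATRA 1. DNMT3B, a de novo enzyme, had 8.47 and 16.3 CPM with ethanol and 4.40 and 9.51 CPM with ATRA (-0.83 ± 0.54; from -1.51 without ATRA 2 to -0.26 without ethanol 2). ATRA 2 was above ethanol 1, but within each replicate number ATRA was lower. DNMT3A, the other de novo enzyme, had 101 and 122 CPM with ethanol and 125 and 139 CPM with ATRA (0.25 ± 0.24).

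The TET enzymes, which oxidise methylated cytosine, had 1 estimate above 0 and 2 below, and 0 of 3 passed. TET1 had 41.2 and 64.7 CPM with ethanol and 29.4 and 46.7 CPM with ATRA (-0.48 ± 0.35), with groups that overlapped. TET2 had 81.8 and 77.9 CPM with ethanol and 99.0 and 99.1 CPM with ATRA (0.31 ± 0.23), with groups that did not. TET3 was at -0.07 ± 0.28, and its difference was 0.19 within replicate 1 and -0.28 within replicate 2.

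Of the 10 deacetylase genes 0 passed, and HDAC9, a class IIa enzyme that acts with MEF2 transcription factors, had the smallest p. HDAC9 had 140 and 120 CPM with ethanol and 56.0 and 59.0 CPM with ATRA. All ATRA values were under the ethanol values by a wide gap, with a log2 fold change of -1.17 ± 0.24 (adjusted p 0.0920, edgeR quasi-likelihood; 0.0218 with DESeq2), or 2.26-fold lower. In edgeR quasi-likelihood fits without 1 library its adjusted p ran from 0.0688 to 0.183. The other class IIa genes were nearer to 0. HDAC7 had 36.0 and 47.5 CPM with ethanol and 70.8 and 52.2 CPM with ATRA (0.56 ± 0.29), HDAC5 had 71.5 and 58.5 CPM with ethanol and 53.5 and 51.9 CPM with ATRA (-0.30 ± 0.24), and HDAC4 was at -0.06 ± 0.25. For HDAC7 the difference was 0.97 within replicate 1 and 0.14 within replicate 2.

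The class I deacetylases form the core of the corepressor complexes, and 0 of 4 passed. HDAC1 had 51.3 and 88.2 CPM with ethanol and 34.5 and 58.4 CPM with ATRA (-0.59 ± 0.39, adjusted p 0.560, edgeR quasi-likelihood). Its groups overlapped, yet the differences within replicates were nearly equal, at -0.57 and -0.59. Without 1 library the estimate ran from -1.03 (without ATRA 2) to -0.12 (without ethanol 2). HDAC2 had 127 and 187 CPM with ethanol and 147 and 212 CPM with ATRA (0.19 ± 0.32). HDAC3, the catalytic subunit of the nuclear receptor corepressor complex, had 51.4 and 57.7 CPM with ethanol and 55.9 and 52.5 CPM with ATRA, an estimate of -0.01 ± 0.23. HDAC8 was at 0.20 ± 0.25.

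HDAC6, the cytoplasmic tubulin deacetylase, had 20.3 and 35.0 CPM with ethanol and 35.0 and 52.9 CPM with ATRA (0.67 ± 0.37, adjusted p 0.470, edgeR quasi-likelihood). HDAC11, the class IV enzyme, had 10 and 22 reads with ethanol and 31 and 52 with ATRA, or 0.770 and 1.09 CPM against 2.10 and 3.11 CPM (1.47 ± 0.59, adjusted p 0.307). At so few reads its standard error was the largest of all 49 members.

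KDM5B, which removes methyl groups from lysine 4 of histone H3, had the smallest p of all members. It had 72.4 and 115 CPM with ethanol and 266 and 363 CPM with ATRA. The lower ATRA library was above the higher ethanol library, and the log2 fold change was 1.74 ± 0.33 (adjusted p 0.0827, edgeR quasi-likelihood), or 3.35-fold. It was called by DESeq2 (adjusted p 0.00150) and by edgeR in 3 of the 4 fits that left out 1 library (0.000791 without ATRA 1, 0.00574 without ATRA 2 and 0.00157 without ethanol 2, against 0.0560 without ethanol 1). Those fits called between 2.68% (without ethanol 1) and 4.05% (without ATRA 2) of all their genes higher, with 3.08% without ATRA 1 and 3.98% without ethanol 2.

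KDM6B removes the PRC2 mark from lysine 27. It had 18.3 and 10.2 CPM with ethanol and 40.4 and 17.4 CPM with ATRA (1.03 ± 0.50, adjusted p 0.399, edgeR quasi-likelihood). ATRA 2 was below ethanol 1, while ATRA was higher within both replicate numbers, by 1.14 and 0.77. The estimate was 0.29 without ATRA 1 and 1.51 without ATRA 2. In each group library 2 was the lower one. With a term for the replicate number the estimate was 0.962 ± 0.205 (adjusted p 0.01, edgeR quasi-likelihood). KDM6B was among 8 members called higher in that fit (16.3%, against 12.3% of all genes). The same fit called 11 members lower (22.4%, against 9.38% of all genes). The lysine 4 demethylase KDM1A, a partner of the CoREST corepressor, had 176 and 303 CPM with ethanol and 222 and 317 CPM with ATRA (0.17 ± 0.35), and KDM2B, which brings a form of PRC1 to CpG islands, was at -0.09 ± 0.24. KDM1A had the highest level per kilobase of exon among the members, 76.7 CPM per kilobase with ethanol and 86.2 with ATRA. The lowest was CHD5, at 0.0964 and 0.346 CPM per kilobase. These levels use the summed exon length in GENCODE 29.

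Of the 6 histone methyltransferases 0 passed. Those of lysine 9 of histone H3, a mark of silent heterochromatin, include SUV39H1 and SUV39H2. SUV39H1 had 10.9 and 13.9 CPM with ethanol and 3.25 and 5.09 CPM with ATRA, on 141 and 280 reads against 48 and 85. Both ATRA libraries were lower by more than the spread within either group, with a log2 fold change of -1.57 ± 0.42 (adjusted p 0.153, edgeR quasi-likelihood; 0.0368 with DESeq2), or 2.96-fold lower. SUV39H2 had 50.6 and 54.5 CPM with ethanol and 28.0 and 35.4 CPM with ATRA (-0.73 ± 0.26, adjusted p 0.243). The EHMT1 and EHMT2 enzymes, which act together as a pair, were at 0.21 ± 0.23 and 0.19 ± 0.23, with both ATRA libraries slightly above both ethanol libraries in each gene. SETDB1, which acts with zinc finger repressors on transposons, was at 0.03 ± 0.23. DOT1L, the lysine 79 enzyme, had 78.8 and 60.8 CPM with ethanol and 87.5 and 44.0 CPM with ATRA. Its ATRA libraries lay on either side of the ethanol ones, and its estimate was -0.09 ± 0.38.

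The acetyltransferases were near 0 in all 3 cases, and their groups overlapped. EP300 had 71.1 and 55.2 CPM with ethanol and 73.5 and 61.3 CPM with ATRA (0.09 ± 0.26). CREBBP, its close relative, was at 0.18 ± 0.28 and KAT2A, the enzyme of the SAGA complex, at -0.24 ± 0.30. An estimate near 0 with errors of this size does not show that levels were equal.

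Of the 4 remodellers, CHD5 alone was far from 0. CHD5 is a neuronal gene of chromosome arm 1p, a region often lost in neuroblastoma, and was low here, with 10 and 22 reads with ethanol and 49 and 56 with ATRA. That was 0.770 and 1.09 CPM against 3.32 and 3.35 CPM, so the groups did not overlap (1.82 ± 0.56, adjusted p 0.190, edgeR quasi-likelihood). SMARCA4, the ATPase of the BAF complex, had 243 and 251 CPM with ethanol and 280 and 254 CPM with ATRA (0.11 ± 0.23). The BAF subunits ARID1A and ARID1B, which are mutated in some neuroblastomas, were at 0.03 ± 0.23 and 0.05 ± 0.23, and their libraries lay between 49.5 and 52.0 CPM and between 72.0 and 82.6 CPM.

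**Figure D2:**
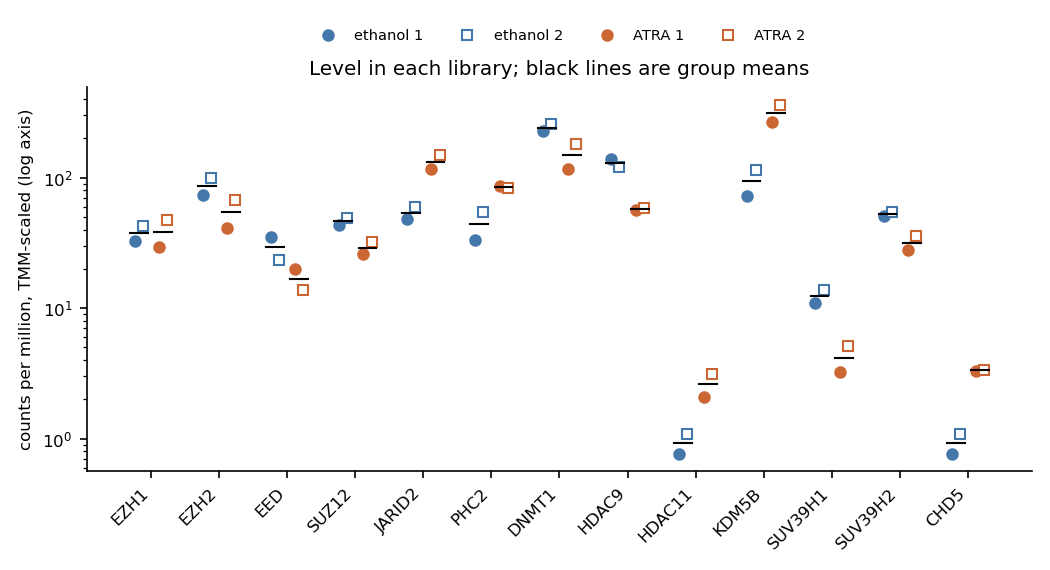
CPM in each library (vertical log axis, TMM-scaled) for the 9 members with an unadjusted p under 0.05, the PRC2 core and DNMT1, with filled circles for replicate 1, open squares for replicate 2 and black lines for group means. EZH1 overlaps between the groups, while KDM5B and JARID2 have both ATRA libraries above both ethanol libraries and HDAC9 and SUV39H1 have both below.

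When libraries with the same replicate number were set against each other, 24 members were higher with ATRA in both pairs, 16 were lower in both and 9 had opposite signs. The 9 were EZH1, CBX2, TET3, HDAC3, HDAC4, SETDB1, DOT1L, ARID1A and ARID1B. The share of all genes with the same sign in both pairs was not counted. Across all tested genes the differences within replicates 1 and 2 correlated at 0.74. For KDM5B the differences were 1.88 and 1.65, for JARID2 1.28 and 1.33, for HDAC9 -1.32 and -1.02, and for SUV39H1 -1.70 and -1.43. The PRC2 genes EZH2, SUZ12 and EED had -0.82, -0.74 and -0.82 within replicate 1 and -0.57, -0.61 and -0.76 within replicate 2. SUV39H2 had -0.85 and -0.62, CHD5 had 1.95 and 1.52, and HDAC11 had 1.32 and 1.41.

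**Figure D3:**
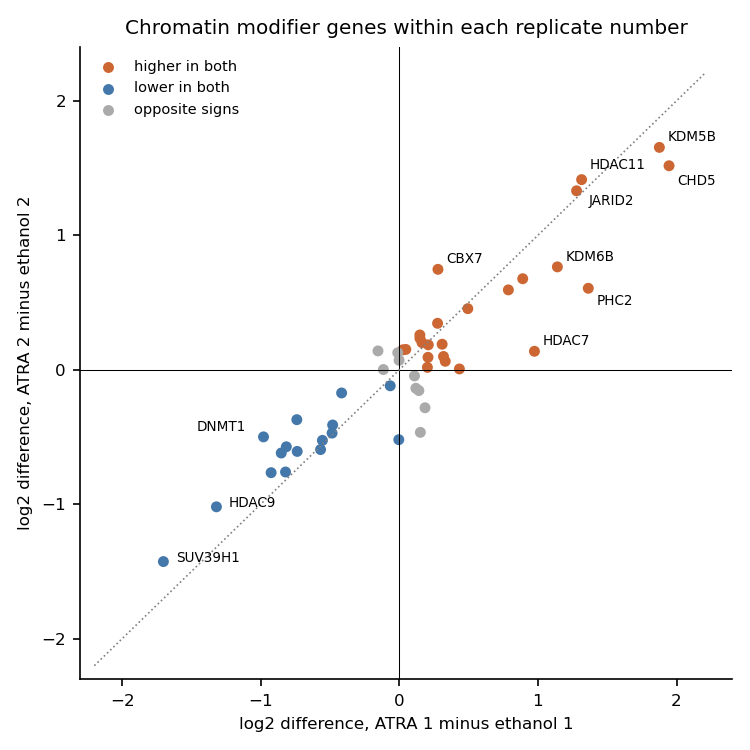
Log2 difference between ATRA and ethanol (log2 CPM with a prior count of 2) within replicate 1 (horizontal axis) and within replicate 2 (vertical axis), 1 point per member, with the dotted line where both are equal. The 24 points in the upper right are higher in both pairs, the 16 in the lower left lower in both, and the 9 grey points have opposite signs.

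Because pairs of related genes share a library, the ratio of their reads can be compared between libraries without any scaling. The ratio itself also depends on the exon lengths of the genes, which cancel in a log2 difference between groups. The ratios of 16 pairs are given as a description; CBX2, CBX7 and TET1 each stand in 2 of them. An exact permutation test of 2 against 2 libraries cannot go below 0.33, and the ratios were not tested in another way. EZH2 over EZH1 was 2.22 and 2.33 in reads with ethanol and 1.40 and 1.42 with ATRA. The libraries of a group nearly coincided, and the log2 ratio differed by -0.69 between the groups. Counted per kilobase of exon, EZH2 made up 77.1% and 77.9% of the pair's reads with ethanol and 68.1% and 68.3% with ATRA.

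HDAC2 over HDAC1 was 2.48 and 2.12 in reads with ethanol and 4.26 and 3.64 with ATRA, a log2 difference of 0.78. It was the same, 0.78, within each replicate number, even though each gene's own CPM overlapped between groups. Counted per kilobase of exon, HDAC2 over HDAC1 was 0.519 and 0.443 with ethanol and 0.891 and 0.761 with ATRA. By that count HDAC1 was the higher of the pair in every library, while in reads HDAC2 was. The count per kilobase rests on summed exon lengths of 10147 bases for HDAC2 and 2124 for HDAC1. SUV39H2 over SUV39H1 was 4.66 and 3.92 with ethanol and 8.60 and 6.96 with ATRA (0.83). DNMT3B over DNMT3A was 0.0837 and 0.134 with ethanol and 0.0351 and 0.0686 with ATRA (-1.09), and TET1 over TET2 was 0.504 and 0.830 with ethanol and 0.297 and 0.471 with ATRA (-0.79). Per kilobase of exon, TET1 over TET2 was 0.853 and 1.41 with ethanol and 0.503 and 0.797 with ATRA. Among CBX genes, CBX8 over CBX7 differed by -0.96, CBX2 over CBX7 by -0.52 and CBX2 over CBX6 by 0.53. TET1 over TET3 differed by -0.43. SMARCA4 over SMARCA2, a gene with few reads, differed by -0.92. The pairs EHMT2 and EHMT1, EP300 and CREBBP, ARID1B and ARID1A, RNF2 and RING1, PHC1 and PHC2, and ACTL6A and ACTL6B overlapped between the groups.

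**Figure D4:**
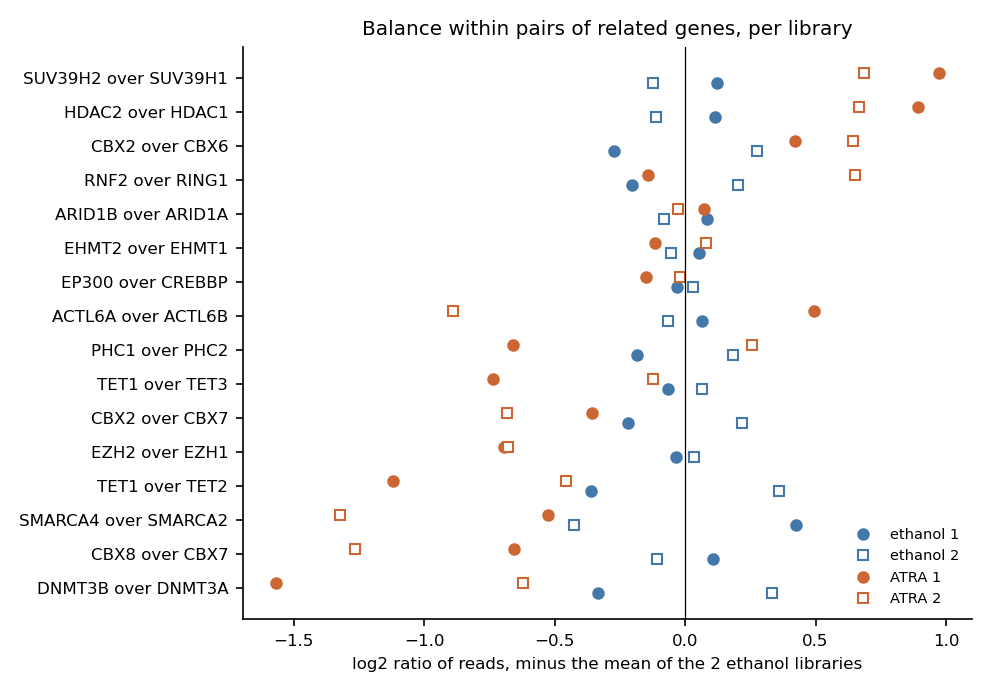
Log2 ratio of reads within 16 pairs of related chromatin genes in each library (horizontal axis, minus the mean of the 2 ethanol libraries), with pairs ordered by their difference along the vertical axis. The ATRA points of EZH2 over EZH1 and of HDAC2 over HDAC1 lie apart from the ethanol points on opposite sides of 0.

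Of 165 other chromatin genes, 162 passed the filter on low counts. No gene of these passed the test (edgeR quasi-likelihood, adjusted p at or above 0.0781), and 14 (8.64%, against 15.9% of all genes) had an unadjusted p under 0.05, 7 higher and 7 lower. Their median log2 fold change was 0.01, with a median size of 0.23. Both ATRA libraries were above both ethanol libraries in 36 (22.2%) and below them in 34 (21.0%).

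The Polycomb list had 0 higher and 2 lower of 24 at an unadjusted p under 0.05. PCGF6, a subunit of a variant PRC1, was at -0.84 ± 0.29, and EPOP, a PRC2 partner, at -0.80 ± 0.29. YAF2 and LCOR were at 0.58 ± 0.24 and 0.84 ± 0.37. Of 9 DNA methylation readers and repair genes, UHRF1, which brings DNMT1 to newly copied DNA, had 101 and 117 CPM with ethanol and 31.8 and 55.2 CPM with ATRA (-1.33 ± 0.33, adjusted p 0.132, edgeR quasi-likelihood). It was far lower in both ATRA libraries, and MBD4 was at -0.56 ± 0.27.

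In the list of 27 deacetylase complex and sirtuin genes, REST, the repressor of neuronal genes, had 0.924 and 0.396 CPM with ethanol and 46.0 and 8.32 CPM with ATRA (5.40 ± 1.00, adjusted p 0.0781, edgeR quasi-likelihood; 3.68 without ATRA 1 and 6.16 without ATRA 2). Its ATRA libraries differed widely from each other and both were above both ethanol libraries. RCOR1 and RCOR2 of the CoREST complex were at -0.79 ± 0.26 and -0.66 ± 0.31. Among 15 acetyltransferases and bromodomain readers, KAT6B was at 1.29 ± 0.26 and the receptor coactivator NCOA3 at 1.10 ± 0.31, while HAT1, which acetylates newly made histone H4, was at -0.95 ± 0.29 and KAT8 at -0.44 ± 0.25.

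Of 16 other demethylases, JMJD1C was at 0.64 ± 0.23, KDM3A at 0.75 ± 0.33, KDM8 at -0.46 ± 0.46 and KDM1B at -0.19 ± 0.32. Of 28 other methyltransferases, PRMT2 was at 0.85 ± 0.24, SMYD3 at 0.69 ± 0.26, PRMT6 at -0.51 ± 0.23 and NSD2 at -0.53 ± 0.30.

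Markers of cycling cells were lower in the same libraries. All 18 of them had estimates below 0, with a median of -1.25 (-1.66 within replicate 1 and -0.97 within replicate 2), and 17 had both ATRA libraries below both ethanol libraries; 0 passed (edgeR quasi-likelihood) and 17 had an unadjusted p under 0.05. Their summed level was 3478 and 4601 CPM with ethanol and 1191 and 2200 CPM with ATRA. In bulk RNA, fewer cells of a kind and less RNA per cell cannot be told apart, and the part of these markers in the values of EZH2, SUZ12, EED, DNMT1, SUV39H1, SUV39H2 and UHRF1 was not tested.

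The retinoid target genes CYP26A1, CYP26B1, RARB and DHRS3, fixed as a check of the treatment, were all 4 called higher. The neuroblast markers were present, with 4293 to 5201 CPM summed over 9 genes with ethanol and 2922 to 3662 CPM with ATRA, most of it MYCN. GATA3 was called lower (-2.64, adjusted p 0.0381, edgeR quasi-likelihood), and PHOX2A was higher in both ATRA libraries (0.92, adjusted p 0.261). Of 6 fibroblast markers, COL1A2 had between 0 and 5 reads per library, but DCN had between 40.9 and 310 CPM. COL1A1 had 0 and 13 reads with ethanol and 339 and 82 with ATRA, and PDGFRA had 6 and 26 reads with ethanol and 116 and 36 with ATRA, so both were higher in each ATRA library. LUM went the other way without overlap, with 39.8 and 125.7 CPM with ethanol and 13.7 and 21.8 CPM with ATRA (-2.22 ± 0.58). The estimates of DCN and PDGFRB were also below 0, with groups that overlapped. The 5 tested, most of whose level was DCN, LUM and PDGFRB, summed to 233 and 553 CPM with ethanol and 134 and 349 CPM with ATRA. The 4 endothelial markers had at most 9 reads in a library. Of the immune markers CD3E had at most 1 read, and the 2 tested summed to 1.64 to 3.47 CPM with ethanol and 6.999 to 20.4 CPM with ATRA. The Schwann cell markers summed to 7.93 and 12.4 CPM with ethanol and 17.95 and 22.4 CPM with ATRA over 5 genes, and CDH19 had at most 1 read. The part of these in the members' values was not tested.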

How the data were processed

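The values are unnormalized read counts by gene symbol, deposited by the authors; STAR 2.5.2b, featureCounts 1.5.1 and build hg19 are named per the submitters' processing notes. Not given in the sources used here: the annotation, the strand setting and how shared reads were handled. Therefore counts of overlapping or near-identical genes are uncertain. Per the labels' protocols, total RNA was freed of ribosomal RNA before directional library preparation.

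Here, edgeR 4.0.16 in R 4.3.3 was run on all genes that passed filterByExpr (minimum count 10): TMM scaling, quasi-likelihood F test with robust estimation, treatment as the only term, 2 residual degrees of freedom, two-sided, Benjamini-Hochberg adjustment over 18900 genes, threshold 0.05. The standard error is the size of the log2 fold change over the square root of F. Differences within replicate numbers use log2 CPM with a prior count of 2. DESeq2 1.42.0, limma-voom (limma 3.58.1), other scalings and filters, a replicate term and fits without each library were run as alternatives. The procedure was tested on simulated data.

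All 49 members are named; of 7 lists of other chromatin genes, those called and the 2 with the smallest p in each direction, except for genes that are not reported here. Of these, SMARCD2, SMARCD3, HELLS and BCL11B are in the closing section. The members and lists were chosen with earlier results of these data known. Gene lengths come from GENCODE 29 and promoter windows from RefSeq, a later build than the counts, matched by symbol.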

Additional observations from a re-analysis of the deposited data

How the results depend on the processing

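With 2 libraries per treatment and 2 residual degrees of freedom, the number of calls depended on the method; the cause was not tested. Over all genes 132 were called, against 1269 with DESeq2, 50 with limma-voom, 1821 with any gene with 1 count or more kept, and 870 to 1442 when 1 library was left out. Members called higher numbered 0, against 2 with DESeq2, 2 with any gene with 1 count or more and 0 to 2 without 1 library; members called lower numbered 0, against 2, 2 and 0 to 0. The 2 higher were JARID2 and KDM5B and the 2 lower HDAC9 and SUV39H1 in both of these fits. With any gene with 1 count or more kept, 3.02% of all genes were called higher and 1.86% lower. Of the members, 4.08% were called in each direction in that fit. The members' median log2 fold change of 0.05 ranged from -0.05 to 0.15 without 1 library. The labels do not say that replicate numbers mark a shared culture; the difference between libraries 1 and 2 correlated at 0.63 across genes between the treatments. With a replicate block, edgeR called 4098 genes, 8 members higher (CHD5, HDAC11, HDAC6, JARID2, KDM5B, KDM6B, PHC1 and PHC2) and 11 lower (CBX6, DNMT1, DNMT3B, EED, EZH2, HDAC1, HDAC9, PHF19, SUV39H1, SUV39H2 and SUZ12), or 16.3% and 22.4% of the members beside 12.3% and 9.38% of all genes. DESeq2 with that block called 2632 genes, 4 members higher and 5 lower. These were 8.16% and 10.2% of the members, beside 3.93% and 3.13% of all 37299 genes with 1 count or more.

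With a prior count of 0.5 the log2 ratio was 0.7791 for HDAC2 over HDAC1 and -0.9825 for SMARCA4 over SMARCA2. The sign was the same in all 13 alternatives for 32 members; 17 members and 1 other gene named in the text changed sign, all within 0.2352 of 0 at first, and none was called where it did. EZH1 was at -0.0078 with DESeq2, -0.0118 with limma-voom, -0.0147 with library size alone, -0.0301 with any gene with 1 count or more, and -0.0038 (edgeR) and -0.0278 (DESeq2) with the replicate block. With library size alone and with any gene with 1 count or more, SETDB1 was at -0.0139 and -0.0135 and ARID1A at -0.0088 and -0.0063. Without 1 library, log2 fold changes ranged from -0.3713 to 0.3075 for EZH1, -0.4079 to 0.5401 for MTF2, -0.0456 to 0.3220 for BMI1, -0.2154 to 0.1713 for CBX2, -0.3540 to 0.2266 for TET3, -0.1075 to 0.5157 for HDAC2, -0.1372 to 0.0897 for HDAC3, -0.1975 to 0.0601 for HDAC4, -0.2185 to 0.6283 for KDM1A, -0.2253 to 0.0120 for KDM2B, -0.0681 to 0.1014 for SETDB1, -0.6676 to 0.3207 for DOT1L, -0.5571 to 0.0155 for KAT2A, -0.0643 to 0.2438 for EP300, -0.0301 to 0.3680 for CREBBP, -0.0263 to 0.1115 for ARID1B and -0.4677 to 0.0284 for KDM1B. In those fits the lone library is assumed to vary like the other group. CHD5, HDAC11 and CBX7 had the fewest reads, 10 to 57 per library.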

Other observations

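The remodellers outside the member list hold the subunits that neurons exchange within the BAF complex. Of 43 such genes 0 passed (edgeR quasi-likelihood), and 2 had an unadjusted p under 0.05. HELLS, a helicase needed for DNA methylation and known from cycling cells, had 173 and 159 CPM with ethanol and 42.2 and 86.8 CPM with ATRA (-1.36 ± 0.38, adjusted p 0.164, edgeR quasi-likelihood). SMARCD2 had 134 and 145 CPM with ethanol and 100 and 80.6 CPM with ATRA (-0.63 ± 0.25), while its relative SMARCD3 had 11.9 and 9.42 CPM with ethanol and 22.4 and 15.7 CPM with ATRA (0.84 ± 0.34). In both SMARCD genes the groups did not overlap. BCL11B, a low gene that belongs to BAF complexes, was at 1.68 ± 0.75. For the pair ACTL6A and ACTL6B, the progenitor and the neuronal form of 1 subunit, the ratio in reads was 5.50 and 5.02 with ethanol and 7.43 and 2.83 with ATRA, so the 2 ATRA libraries lay on either side.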
